A study of Mus musculus with 108 samples.

Results

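The genes described here encode the cytosolic and microsomal conjugation enzymes of the Ugt, Gst and Sult families. They were chosen by name alone, as autosomal protein-coding RefSeq genes of mm10 whose symbols begin with Ugt1, Ugt2, Ugt3, Gsta, Gstm, Gstp, Gstt, Gsto, Gstz, Gstk or Sult. This gave 64 of 20021 such genes, with 21 Ugt, 22 Gst and 21 Sult genes, and no measured value entered the choice. Chromatin of livers that had been fixed in formalin and embedded in paraffin, from female C57BL/6 mice, was immunoprecipitated for H3K4me3, H3K4me1, H3K27ac and H3K27me3 and sequenced (ChIP-seq). Of 108 libraries, 30 belonged to mice of 3 months on standard diet (SD 3m), 29 to mice of 12 months on standard diet (SD 12m) and 29 to mice of 12 months kept from 3 months of age on 30% caloric restriction (CR 12m). The 6-month group was not analysed here. The authors merged the libraries of each group and, with the hidden Markov model ChromHMM, gave every bin of 200 bp 1 of 8 states.

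The deposited value is the number of a state. State 1 (active TSS) and state 2 (flanking TSS) are the promoter states, with frequent H3K4me3 and H3K27ac, where TSS stands for transcription start site. States 3 and 4 are active enhancers with H3K27ac, joined in state 3 by H3K4me1, state 5 is a poised enhancer, state 6 is repressed by Polycomb, state 7 is the age-related state of repeats and lamina-associated regions, with weak H3K4me3, and state 8 is quiescent. States 1 to 5 are called active here and states 6 to 8 inactive. As each group has a single segmentation of merged libraries, no difference between groups could be set against the spread between mice, no test was made, and each count is set beside the same count over all 20021 genes. The SD 12m and CR 12m groups are both compared with the same SD 3m segmentation, so these comparisons are not independent.

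Conjugation is the second phase of drug metabolism, in which a polar group is attached to a foreign compound, a hormone or a waste product so that it can be excreted in bile or urine. The Ugt enzymes attach glucuronic acid to compounds such as bilirubin and steroids, the Gst enzymes attach glutathione to electrophiles, and the Sult enzymes attach sulfate to phenols, steroids and bile acids. Hepatocytes are the main site of this work, and many of the genes lie in tandem clusters that arose by duplication.

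The promoters of these genes were poor in CpG. The 250 bases before the TSS were matched in RefSeq (GRCm38.p6, the assembly that mm10 represents) for 55 of the 64 genes and for 15660 of all genes. The genes without an entry were Gsta4, Gstt1, Gstt2, Sult2a1, Sult2a2, Sult2a7, Sult4a1, Ugt1a6b and Ugt3a2. The median number of CpG in these 250 bases was 2, compared to 11 over all genes, and 10 of the 55 (18.2%) had at least 10 CpG, compared to 53.0% of all genes. Of these 10, 9 are Gst genes, namely Gstk1, Gstm1, Gstm4, Gstm5, Gsto1, Gsto2, Gstp1, Gstp2 and Gstz1, and the other is Sult2b1. The following sequences run 5′ to 3′ up to the base before the TSS, with each CpG in capitals. Gstz1 is shown as a CpG-rich promoter whose TSS stayed in state 1 in all 3 groups, Gstp1 as the promoter with the most CpG (18) of the 55, and Ugt2b1 as a promoter with 1 CpG that nevertheless stayed in state 1.
Gstz1 (chr12:87146915-87147164, plus strand): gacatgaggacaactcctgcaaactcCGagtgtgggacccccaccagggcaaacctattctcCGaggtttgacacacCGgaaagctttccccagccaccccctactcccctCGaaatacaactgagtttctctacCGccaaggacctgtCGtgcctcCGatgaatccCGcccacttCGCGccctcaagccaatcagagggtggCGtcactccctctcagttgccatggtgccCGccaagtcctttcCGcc
Gstp1 (chr19:4037913-4038162, minus strand): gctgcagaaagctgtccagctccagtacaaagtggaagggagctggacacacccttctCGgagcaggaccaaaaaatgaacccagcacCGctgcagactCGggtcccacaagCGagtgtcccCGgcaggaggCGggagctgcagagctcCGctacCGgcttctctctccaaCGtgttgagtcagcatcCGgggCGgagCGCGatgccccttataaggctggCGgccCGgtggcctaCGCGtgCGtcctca
Ugt2b1 (chr5:86926504-86926753, minus strand): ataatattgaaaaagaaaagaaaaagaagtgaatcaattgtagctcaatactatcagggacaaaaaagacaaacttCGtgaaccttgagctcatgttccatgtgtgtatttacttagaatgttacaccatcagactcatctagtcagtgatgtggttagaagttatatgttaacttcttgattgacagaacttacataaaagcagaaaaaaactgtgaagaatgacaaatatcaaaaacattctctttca
Promoters of the Sult2a cluster on chromosome 7 are shown because its active share changed most among the clusters of these genes. Sult2a3 and Sult2a5 gained active bins around the TSS, and Sult2a4 was quiescent at its TSS in all 3 groups.
Sult2a3 (chr7:14123049-14123298, minus strand): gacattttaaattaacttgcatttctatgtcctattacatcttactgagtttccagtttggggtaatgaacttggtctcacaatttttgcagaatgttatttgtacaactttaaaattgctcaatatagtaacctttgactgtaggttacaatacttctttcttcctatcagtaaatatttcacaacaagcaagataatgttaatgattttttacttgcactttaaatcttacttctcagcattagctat
Sult2a5 (chr7:13623717-13623966, plus strand): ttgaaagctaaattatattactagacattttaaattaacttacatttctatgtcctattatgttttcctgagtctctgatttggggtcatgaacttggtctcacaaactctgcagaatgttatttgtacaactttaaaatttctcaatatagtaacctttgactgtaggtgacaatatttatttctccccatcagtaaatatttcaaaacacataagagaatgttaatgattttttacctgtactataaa
Sult2a4 (chr7:13989589-13989838, minus strand): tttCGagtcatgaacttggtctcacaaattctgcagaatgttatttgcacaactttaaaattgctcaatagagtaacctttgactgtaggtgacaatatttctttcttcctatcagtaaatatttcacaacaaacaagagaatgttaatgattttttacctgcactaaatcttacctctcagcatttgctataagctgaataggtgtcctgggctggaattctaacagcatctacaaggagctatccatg
The last 3 promoters share the run of 20 bases agtaacctttgactgtaggt, which starts 123 bases before the TSS in Sult2a3, 100 bases before it in Sult2a5 and 179 bases before it in Sult2a4, and which no other promoter of the 15660 holds. Sult2a1, Sult2a2 and Sult2a7 had no entry, so their promoters were not searched for this run. In local alignments, Sult2a4 was 91.8% identical to Sult2a3 over 194 columns and 92.2% identical to Sult2a5 over 167 columns. Sult2a3 was 88.1% identical to Sult2a5 over 227 columns. Sult2a6 was 81.5%, 83.9% and 81.2% identical to Sult2a3, Sult2a4 and Sult2a5 over 233, 205 and 207 columns. Sult2a8 aligned with these 3 over only 43, 64 and 49 columns.

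Most of these genes had an active TSS bin at every age and under both diets, but in the states of enhancers more often than in the promoter states 1 and 2. The TSS bin was active in 52 (81.25%), 54 (84.4%) and 55 (85.9%) of the 64 genes in SD 3m, SD 12m and CR 12m, compared to 63.0%, 63.1% and 63.4% of all genes. It was in state 1 or 2 in 18 (28.1%), 14 (21.9%) and 11 (17.2%) of them, compared to 46.4%, 40.5% and 35.7% of all genes. States 3 to 5 held 34 (53.1%), 40 (62.5%) and 44 (68.75%), compared to 16.6%, 22.6% and 27.7%. A TSS bin in state 7 was found for none of the 64 genes in any group, and such bins were also rare over all genes (1.56%, 3.68% and 1.47%). The same 52 genes (81.25%) were active in all 3 groups, compared to 59.6% of all genes, and 43 (67.2%) had every bin within 2 kb of the TSS active in all 3 groups, compared to 51.7% of all genes.

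**Figure D1:**
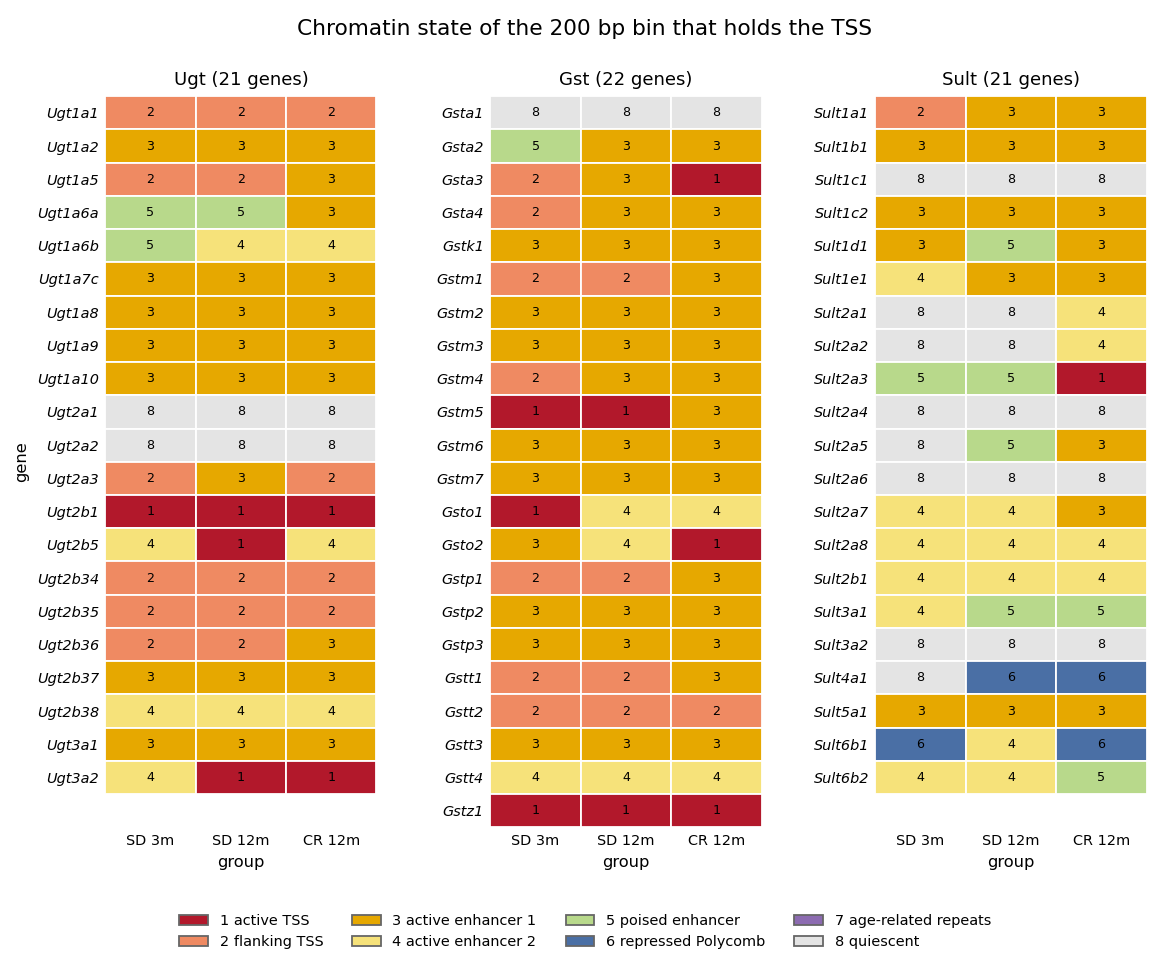
State of the 200 bp bin that holds the TSS for each of the 64 genes (rows) in SD 3m, SD 12m and CR 12m (columns), with the number and colour of the state. Most cells are in state 2 or 3, no cell is in state 7, and the inactive cells are mostly Sult genes.

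Over all genes, promoters with few CpG were less often active, while most of these genes were active with few CpG. Among promoters with fewer than 10 CpG, the TSS bin was active in 80.0%, 84.4% and 82.2% of 45 conjugation genes in SD 3m, SD 12m and CR 12m, compared to 39.8%, 40.3% and 40.2% of 7355 genes. States 3 to 5 made up most of this, with 60.0%, 68.9% and 66.7% of the 45 genes compared to 21.2%, 26.1% and 28.6% of the 7355. All 10 promoters with at least 10 CpG had an active TSS bin in all 3 groups, compared to 83.7%, 83.1% and 83.8% of all 8305 such promoters, and 6, 4 and 2 of them were in state 1 or 2 in SD 3m, SD 12m and CR 12m. Short motifs were searched on both strands of the 250 bases. The sequence TATAAA of the TATA box was found in 11 promoters (20%, compared to 12.4% of all). Its hits were spread over the 250 bases, so a hit need not be a TATA box. The core of the xenobiotic response element GCGTG was found in 8 (14.5%, compared to 35.1%) and the core of the antioxidant response element TGACNNNGC in those of Gsta3 and Gstm5 (3.64%, compared to 10.7%). These counts were not adjusted for base composition, with a median GC content of 43.2% compared to 56% of all. The motif CAAAGTCCA of HNF4A, a factor that defines hepatocytes, was in none of the 55 and in 0.383% of all promoters.

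**Figure D2:**
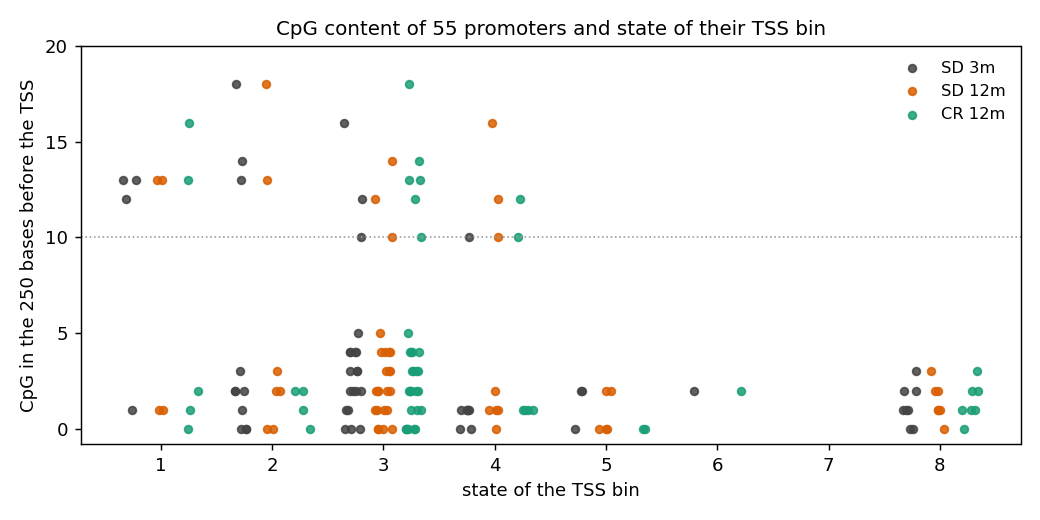
CpG count in the 250 bases before the TSS (vertical axis) against the state of the TSS bin (horizontal axis) for 55 genes, 1 point per gene and group, with a dotted line at 10 CpG. Points with few CpG fill state 3 in every group, and the points above the line lie in states 1 to 4.

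State 1 or 2 receded from the bins before the TSS and was largely kept in the bins after it. In the 2 kb before the TSS, the 64 genes held on average 0.812, 0.203 and 0.156 bins of state 1 or 2 in SD 3m, SD 12m and CR 12m, compared to 2.46, 1.30 and 1.07 over all genes. In the 2 kb after the TSS they held 3.25, 2.97 and 3.33 bins, compared to 4.08, 2.84 and 2.55. At 2 kb after the TSS the bin was in state 1 or 2 in 20, 11 and 17 of the 64 genes, or 31.2%, 17.2% and 26.6%, compared to 26.8%, 8.34% and 6.55% of all genes. Any such bin before the TSS was found in 16, 5 and 6 genes (25%, 7.81% and 9.38%), compared to 45.1%, 34.4% and 29.4% of all genes. Any after it was found in 29, 28 and 27 genes (45.3%, 43.8% and 42.2%), compared to 53.0%, 49.3% and 46.6%. Without the 8 Sult2a genes, the means after the TSS were 3.71, 3.25 and 3.23 bins in 56 genes.

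**Figure D3:**
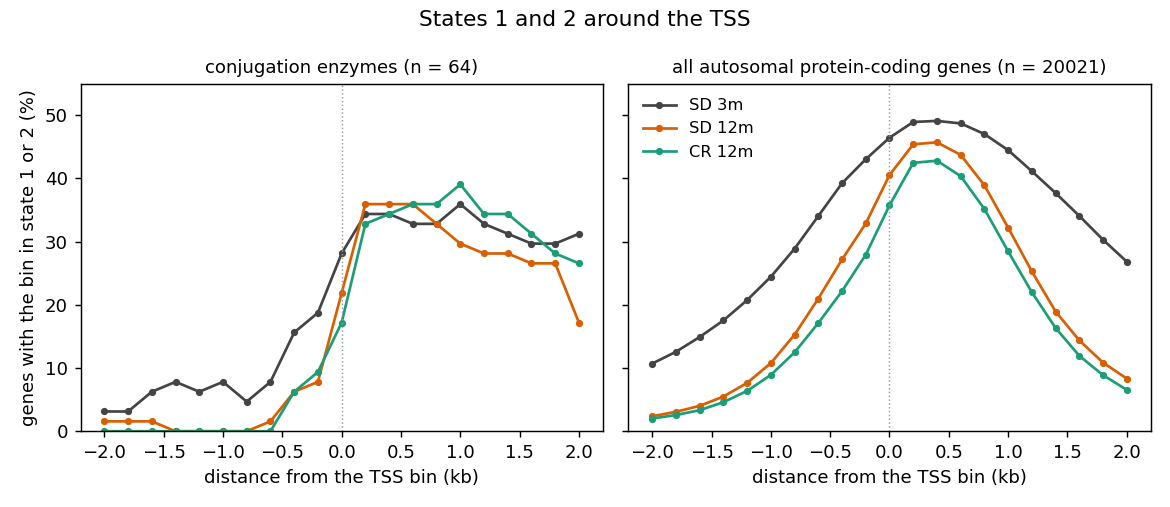
Percent of genes whose bin at each distance from the TSS bin is in state 1 or 2, for the 64 conjugation enzymes (left) and all 20021 autosomal protein-coding genes (right); transcription runs to the right and lines are the 3 groups. On the left, SD 3m is the highest line in every bin before the TSS, where both 12-month groups are at or near 0 beyond 0.6 kb, while after the TSS the order of the groups varies from bin to bin, with all values between 17.2% and 39.1%.

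From SD 3m to SD 12m, 11 genes (17.2%, background 11.7%) lost their last bin of state 1 or 2 in the 2 kb before the TSS. They were Gsta3, Gsta4, Gstm1, Gstm4, Gstm5, Gstm7, Gstt1, Sult1a1, Sult1b1, Ugt2b36 and Ugt2b37. In CR 12m it was lost by those 11 genes and by Gstp1, 12 in all (18.75%, background 16.5%). Only genes with such a bin at 3 months could lose it. These were 16 of the 64 (25%) and 9027 of all 20021 genes (45.1%), so the shares of losses have unlike bases. A first such bin before the TSS was gained by no gene in SD 12m (background 0.969%) and by Sult2a3 and Ugt3a2 in CR 12m (3.12%, background 0.759%). After the TSS, 4 genes lost their last such bin in SD 12m (6.25%, background 4.36%) and 7 in CR 12m (10.9%, background 6.90%). A first such bin after the TSS was gained by Sult2a3, Sult2a7 and Ugt3a1 in SD 12m (4.69%, background 0.724%) and by Gsto2, Sult2a1, Sult2a2, Sult2a3 and Sult2a7 in CR 12m (7.81%, background 0.499%). For example, Gstp1, the most abundant pi-class transferase, had 6, 1 and 0 bins of state 1 or 2 before the TSS in the 3 groups, in the order above, and 7, 2 and 7 after it. Ugt1a1, the enzyme that conjugates bilirubin, had 8, 3 and 2 bins before the TSS and 10 in each group after it. Gstt2 had 10, 4 and 2 before it and 10, 9 and 10 after it. Of the words of 50 bases within 2 kb of the TSS of Ugt1a1, 77.5% occur once in the genome. In its TSS bin and gene body 100% do, so the repeated words lie before the TSS, where bins were lost. For Gstp1, 84.4% do within 2 kb and 65.5% in the gene body, and for Gstt2 99.7% and 100%. The part of this in these counts was not tested.

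The state of the TSS bin differed from SD 3m in 17 genes in SD 12m (26.6%, background 32.7%) and in 25 in CR 12m (39.1%, background 35.5%), and it differed between SD 12m and CR 12m in 19 (29.7%, background 27.1%). These shares were near those of all genes, and 35 genes (54.7%) had 1 state in all 3 groups, compared to 54.9% of all genes. The most frequent change was from state 2 to state 3, from a flanking TSS to an active enhancer. It was found in 5 genes in SD 12m (7.81%, background 2.25%), namely Gsta3, Gsta4, Gstm4, Sult1a1 and Ugt2a3. In CR 12m it was found in 8 genes (12.5%, background 3.54%), namely Gsta4, Gstm1, Gstm4, Gstp1, Gstt1, Sult1a1, Ugt1a5 and Ugt2b36. Against SD 12m, CR 12m differed in this way in Gstm1, Gstp1, Gstt1, Ugt1a5 and Ugt2b36 (7.81%, background 1.11%). Only genes in state 2 could make this change. In SD 3m these were 14 of the 64 (21.9%) and 10.8% of all genes, so the shares have unlike bases. State 1 or 2 was lost by 6 genes in SD 12m (9.38%, background 7.29%) and by 10 in CR 12m (15.6%, background 11.9%). It was gained by Ugt2b5 and Ugt3a2 in SD 12m (3.12%, background 1.38%) and by Gsto2, Sult2a3 and Ugt3a2 in CR 12m (4.69%, background 1.16%). Among the 5 classes of TSS, enhancer, Polycomb, state 7 and quiescent, 11 genes changed in SD 12m (17.2%, background 22.9%) and 17 in CR 12m (26.6%, background 25.9%), and 14 differed between the 12-month groups (21.9%, background 19.9%). Of these 14, 7 had state 1 or 2 in SD 12m and not in CR 12m (10.9%, background 6.93%), and Gsta3, Gsto2, Sult2a3 and Ugt2a3 had it in CR 12m and not in SD 12m (6.25%, background 2.14%).

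No TSS bin of these genes went from active in SD 3m to inactive in either 12-month group, compared to 2.27% and 2.64% of all genes in SD 12m and CR 12m. The reverse was found for Sult2a5 and Sult6b1 in SD 12m (3.12%, background 2.37%) and for Sult2a1, Sult2a2 and Sult2a5 in CR 12m (4.69%, background 3.07%). Between SD 12m and CR 12m, Sult2a1 and Sult2a2 were active in CR 12m only (background 2.07%) and Sult6b1 in SD 12m only (background 1.74%). These were also the genes with the largest rises of the active share within 2 kb, by 50 points or more, in SD 12m (background 1.62%) and in CR 12m (background 2.23%), and no gene fell by as much from SD 3m (background 1.32% and 1.87%). Between the 12-month groups, Sult2a1 and Sult2a2 were higher by as much in CR 12m (background 1.32%) and Sult6b1 was lower (background 1.09%). Only 5.5% and 25.0% of the words of 50 bases in the TSS bins of Sult2a1 and Sult2a2 are unique, so their states are uncertain. In the 43 genes with at least 90% unique words within 2 kb, the TSS bin was active in 83.7%, 86.0% and 83.7% in SD 3m, SD 12m and CR 12m. In all, 8 genes (12.5%, compared to 33.3% of all genes) were inactive at the TSS in all 3 groups, namely Gsta1, Sult1c1, Sult2a4, Sult2a6, Sult3a2, Sult4a1, Ugt2a1 and Ugt2a2.

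Among the Ugt genes, the 9 genes of the Ugt1a cluster share their last exons, so that their gene bodies overlap and are not independent. The cluster (chromosome 1, 88055411 to 88220002) was active over 98.9%, 98.4% and 100% of its bins in SD 3m, SD 12m and CR 12m, and every bin within 2 kb of each of its 9 TSS was active in all groups. Ugt1a1 had its TSS bin in state 2 in all groups, and Ugt1a2, Ugt1a7c, Ugt1a8, Ugt1a9 and Ugt1a10 theirs in state 3. Ugt1a5 was in state 2, 2 and 3 in SD 3m, SD 12m and CR 12m. Ugt1a6a and Ugt1a6b, which conjugate simple phenols, were in states 5, 5, 3 and 5, 4, 4. Of the words of 50 bases in their TSS bins, 28% and 45.0% occur once in the genome, so few reads of that length map there uniquely. The share of the Ugt1a cluster in state 5 was 16.9%, 12.0% and 1.94%, and that in state 3 was 66.9%, 78.5% and 84.3%.

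The Ugt2 genes lie with 3 Sult1 genes in a cluster on chromosome 5 (86889770 to 87591611) of which 70.4%, 69.8% and 73.8% of the bins were active. All 7 Ugt2b genes, which conjugate steroids and bile acids among others, had every bin within 2 kb active in all groups. Ugt2b1 stayed in state 1 and Ugt2b34 and Ugt2b35 in state 2, Ugt2b36 was in state 2, 2 and 3, and Ugt2b5 in state 4, 1 and 4. For Ugt2b5 59.5% of the words of its TSS bin are unique. Ugt2b37 was in state 3 and Ugt2b38 in state 4 in all groups, and the active share of their gene bodies was 93.1%, 91.7% and 76.4% for Ugt2b37 and 65.8%, 100% and 100% for Ugt2b38. Ugt2a3 was in state 2, 3 and 2. Ugt2a1 and Ugt2a2, known from the olfactory epithelium, were quiescent at the TSS in all groups, with no active bin within 2 kb. Their overlapping bodies were active over 6.33%, 0% and 11.4% of the bins in Ugt2a1 and over 8.70%, 0% and 15.7% in Ugt2a2. Ugt3a1 and Ugt3a2, which use other sugars than glucuronic acid, were in state 3 in all groups and in states 4, 1 and 1, and their bodies were active over 61.0%, 70.1% and 68.9% and over 37.6%, 41.0% and 41.0%.

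Among the Gst genes, 21 of 22 were active at the TSS in all groups. The exception was Gsta1, an alpha-class enzyme inducible by electrophiles, whose TSS bin was in state 8 in all groups, although active bins began 0.4, 0.2 and 0.2 kb away. Only 40.0% of the words in its TSS bin and 11.7% of those in its body are unique, and the part of this in its state was not tested. Its neighbour Gsta2 (79.0% unique) was in state 5, 3 and 3, and its body was active over 37%, 40.7% and 71.6% of the bins. Gsta3, the main alpha-class gene of the resting liver, was in state 2, 3 and 1, and Gsta4, which removes the lipid peroxidation product hydroxynonenal, in state 2, 3 and 3. The 7 mu-class genes lie on chromosome 3 (107895854 to 108044859), where 92.9%, 96.2% and 96.2% of the bins were active and the bodies of all 7 were fully active in all groups. Gstm2, Gstm3, Gstm6 and Gstm7 stayed in state 3. Gstm1 was in state 2, 2 and 3, Gstm4 in state 2, 3 and 3, and Gstm5 in state 1, 1 and 3. State 6 covered 3.22% of this cluster in SD 3m and 0% in both 12-month groups.

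The pi-class cluster on chromosome 19 and the theta-class cluster on chromosome 10 were active over 100% of their bins in all 3 groups. Gstp1 was in state 2, 2 and 3, with Gstp2 and Gstp3 in state 3 throughout. Gstt1 was in state 2, 2 and 3, Gstt2 in state 2, Gstt3 in state 3 and Gstt4 in state 4 throughout. Gstz1, which isomerizes maleylacetoacetate in tyrosine breakdown, stayed in state 1, and Gstk1, of mitochondria and peroxisomes, in state 3. Of the omega class, which reduces dehydroascorbate, Gsto1 was in state 1, 4 and 4 and Gsto2 in state 3, 4 and 1. Active shares within 2 kb were 100%, 95.2% and 90.5% for Gsto1 and 85.7%, 100% and 95.2% for Gsto2. The body of Gsto2 (chromosome 19, 47865545 to 47886305) was in the Polycomb state 6 over 82.9% of its bins at 3 months, 60.0% in SD 12m and 26.7% in CR 12m, while its active share was 17.1%, 18.1% and 20%. State 8 covered 0%, 21.9% and 53.3% of it.

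The Sult genes were more varied. Of 21 genes, 12 were active at the TSS in all groups and 5 in none. Sult1a1, the main phenol sulfotransferase, was in state 2, 3 and 3. Sult1b1, which acts on thyroid hormones, stayed in state 3, Sult1d1, which acts on catecholamines, was in state 3, 5 and 3, and Sult1e1, the estrogen sulfotransferase, in state 4, 3 and 3. The body of Sult1d1 was active over 100%, 74.0% and 100% of the bins. Sult1c2 and Sult5a1 stayed in state 3, and Sult1c1 in state 8, with the nearest active bin 75.2, 73.0 and 111.2 kb away. Sult2b1, which sulfates cholesterol and is known from skin, stayed in state 4, and its body was active over 42.7%, 94.7% and 88.7% of the bins and in state 6 over 19.3%, 0% and 0%. Sult3a1, known to be higher in the livers of female mice, was in state 4, 5 and 5, while Sult3a2 stayed in state 8. Sult4a1, a gene of the brain, was in state 8, 6 and 6, with no active bin within 2 kb in any group.

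Sult6b1 (chromosome 17, 78884887 to 78906992) was active at the TSS in SD 12m only. All 21 bins within 2 kb of its TSS were in state 6 in SD 3m and in CR 12m, while in SD 12m 66.7% of them were active and its TSS bin was in state 4. State 6 covered 68.5%, 0% and 52.3% of its body and active states 31.5%, 65.8% and 24.3%. Sult6b2, on chromosome 6, stayed active at the TSS (states 4, 4 and 5), and state 6 covered 34.7%, 0% and 20% of its body and active states 55.8%, 40.0% and 72.6%. Sult6b1, Sult6b2, Ugt2a1 and Ugt2a2 were the genes whose active body share moved by 5 points or more in opposite directions in SD 12m and CR 12m (6.25%, background 2.14%).

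The largest change was in the Sult2a cluster, whose 8 genes encode hydroxysteroid sulfotransferases that act on dehydroepiandrosterone and bile acids. In mouse liver, genes of this cluster are known to be expressed more in females than in males. The cluster spans 869 kb (chromosome 7, 13623967 to 14493023). Active states covered 125.6 kb of it (14.4% of the bins) at 3 months, 186.2 kb (21.4%) in SD 12m and 391.2 kb (45.0%) in CR 12m. The longest unbroken active stretch was 19.6 kb, 31.2 kb and 74.0 kb. In the 500 kb before the cluster the active share was 2.80%, 3.56% and 5.84%, in the 500 kb after it 8.0%, 8.76% and 10.7%, and over all autosomes 23.9%, 24% and 24.1%. State 4 made up most of the difference, with 8.90%, 7.94% and 27.7% of the bins of the cluster, followed by state 3 with 1.73%, 2.46% and 10.3%. State 5 was most frequent in SD 12m (2.76%, 10.5% and 5.50%), and state 7 fell from 12.5% in SD 3m to 7.50% and 6.17%. State 6 was absent from the cluster in all groups.

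**Figure D4:**
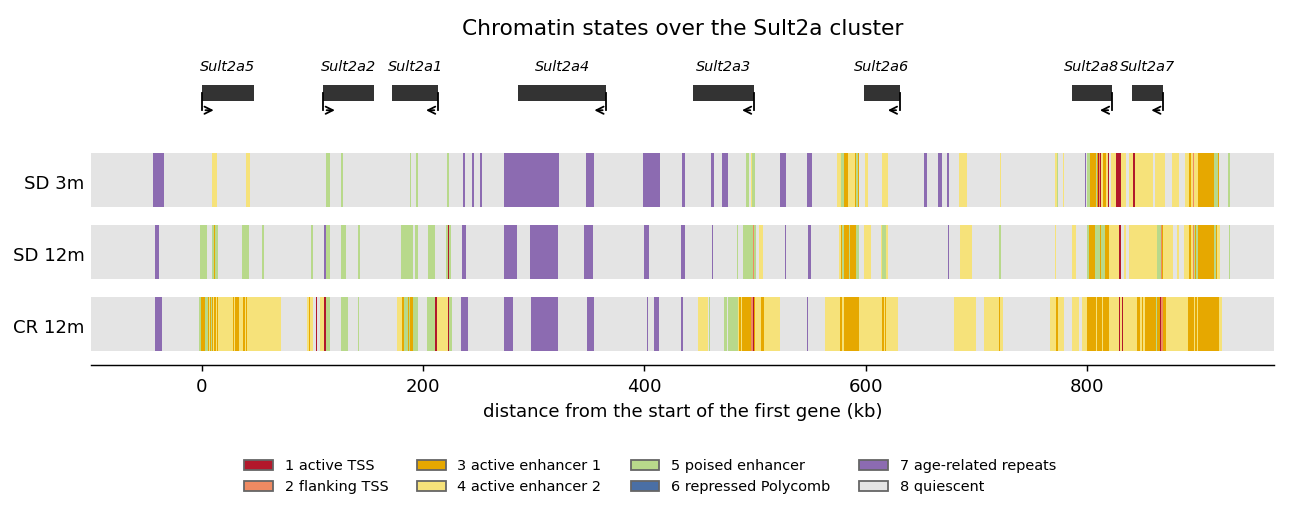
States along the Sult2a cluster and its flanks (horizontal axis in kb from the start of the first gene) in SD 3m, SD 12m and CR 12m, with gene bodies as bars and arrows at the TSS pointing in the direction of transcription. Active states cover 14.4%, 21.4% and 45.0% of the cluster, and in CR 12m they extend over Sult2a5, Sult2a3 and Sult2a6, while Sult2a4 stays in states 7 and 8.

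Sult2a5 (chromosome 7, 13623967 to 13670807) went furthest. Its TSS bin was in state 8, 5 and 3, its 2 kb window was active over 0%, 85.7% and 100% of the bins, and its body over 15.7%, 35.2% and 100%. In SD 3m the nearest active bin was 9.8 kb from its TSS. Sult2a3 (14067555 to 14123048) was in state 5, 5 and 1, with active shares of 71.4%, 95.2% and 100% within 2 kb and of 9.32%, 20.8% and 63.8% in the body. Bins of state 1 or 2 after its TSS numbered 0, 3 and 10. Sult2a7 had a TSS bin in state 4, 4 and 3, with 0, 5 and 10 such bins after it, and an active body share of 88.7%, 100% and 100%. Sult2a8, which sulfates bile acids, stayed in state 4, with shares of 57.1%, 100% and 100% within 2 kb and of 55.6%, 70.0% and 92.8% in the body.

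Sult2a1 (13796246 to 13837410) and Sult2a2 (13733506 to 13779637) had a quiescent TSS bin in both SD groups and state 4 in CR 12m. Their active shares within 2 kb were 9.52%, 9.52% and 100% for Sult2a1 and 0%, 0% and 100% for Sult2a2, and both had 6 bins of state 1 or 2 after the TSS in CR 12m and none before. The body of Sult2a1 was active over 6.76%, 50.7% and 70.0% of the bins and that of Sult2a2 over 10.8%, 22% and 30.2%. These windows are near-identical copies in part, as 44.5% of the words of 50 bases within 2 kb of the TSS of Sult2a1 and 46.4% of those of Sult2a2 are unique, and 5.5% and 25.0% in the TSS bins. As reads of low mapping quality had been removed, few reads of that length remain to mark the repeated parts of these windows, and the values of these genes are uncertain. Sult2a6 kept its TSS bin in state 8, but its body was active over 28.2%, 40.5% and 95.1% of the bins. Within 2 kb its active share was 0%, 0% and 14.3%. Sult2a4 had no active bin within 2 kb or in its body in any group, and state 7 covered 55.2%, 42.8% and 38.5% of its body. Of its words of 50 bases, 57% in the TSS bin, 68.5% within 2 kb and 77.9% in the body are unique. The part of this in its states was not tested.

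The rise in the cluster was also found where reads map uniquely. Among 2108 bins of the cluster with at least 90% unique words, 24%, 31.6% and 58.7% were active in SD 3m, SD 12m and CR 12m. Over all bins of the cluster, 72.8% of the words were unique on average, and in the 993 bins that were active in CR 12m only, 81%. Bins already active at 3 months had a higher mean, 93.0%. At 12 months the mean over active bins was 89.5% on standard diet and 85.3% under caloric restriction. Bins active in CR 12m only were thus less unique than the bins active in either SD group. Whether this contributed to the rise was not tested.

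The mean active share over all 64 genes rose with this cluster. Within 2 kb of the TSS it was 79.9%, 83.3% and 86.2%, and in the body 72.6%, 75.7% and 80.2%, compared to 62.4%, 62.7% and 62.9% and to 50.6%, 52.1% and 53.4% over all genes. Without the 8 Sult2a genes it was 87.3%, 88.3% and 87.5% within 2 kb and 79.1%, 80.5% and 81.8% in the body. An active body share higher by 10 points or more than in SD 3m was found in 10 genes in SD 12m (15.6%, background 11.9%) and in 12 in CR 12m (18.75%, background 15.3%), and 7 of these were Sult2a genes each time. A share lower by 10 points or more was found in Sult1d1 and Sult6b2 in SD 12m (3.12%, background 8.14%) and in Ugt2b37 in CR 12m (1.56%, background 8.10%). Between the 12-month groups, 10 genes were higher in CR 12m by this measure (15.6%, background 9.50%), of which 5 were Sult2a genes, and Sult6b1 and Ugt2b37 were lower (3.12%, background 4.99%). State 6 covered on average 3.21%, 1.02% and 1.61% of the bodies of the 64 genes, compared to 8.81%, 10.9% and 9.19% over all genes. These means rest on few genes, as state 6 was present in 4, 2 and 4 of the 64 bodies. The shares were 6.25%, 3.12% and 6.25%, compared to 17.7%, 19.1% and 17.4% of all genes. In SD 3m the 4 genes were Gsto2, Sult2b1, Sult6b1 and Sult6b2. State 7 covered on average 1.24%, 1.16% and 0.602% of the bodies, compared to 1.49%, 3.76% and 1.84%. Without the Sult2a genes state 7 covered 0.0812%, 0.456% and 0% of the bodies, so that SD 12m was higher and not lower than SD 3m, and with the bins of all 64 bodies pooled it covered 4.45%, 3.39% and 2.51%.

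**Figure D5:**
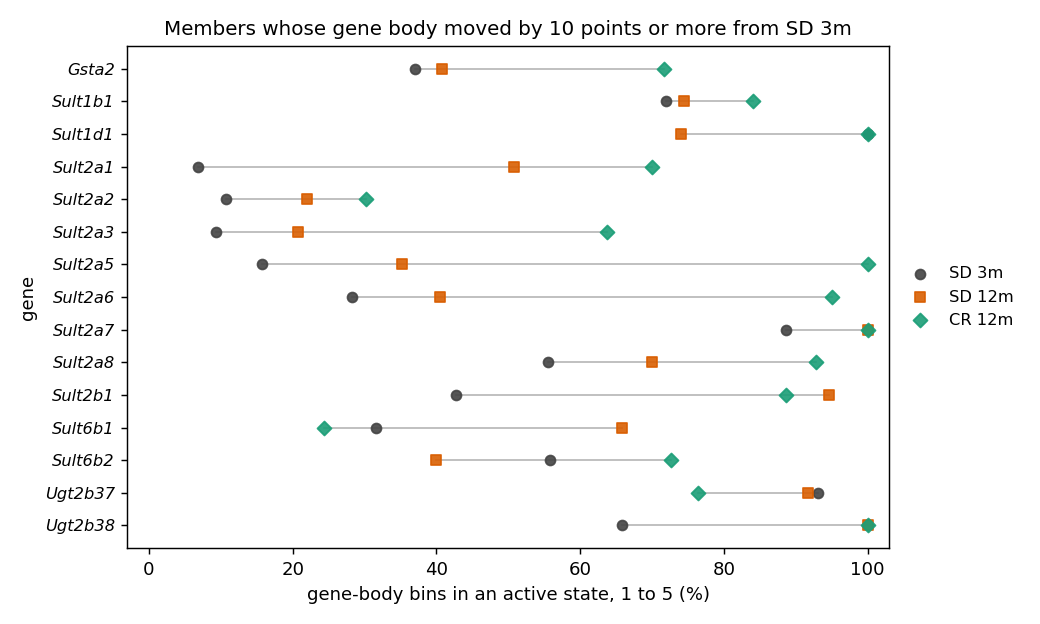
Percent of gene-body bins in an active state (horizontal axis) for the 15 genes that moved by 10 points or more from SD 3m in SD 12m or CR 12m, with 1 symbol per group. For Sult2a1, Sult2a2, Sult2a3, Sult2a5, Sult2a6 and Sult2a8 the order is SD 3m, SD 12m, CR 12m from left to right.

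The genes that supply these enzymes were more often in state 1 or 2 than the enzyme genes. Over all genes, state 1 or 2 held 46.4%, 40.5% and 35.7% of the TSS bins in SD 3m, SD 12m and CR 12m. All 10 genes for cofactor supply were active at the TSS in all groups and 8 of them were in state 1 or 2 in each group, among them Ugdh and Ugp2 (UDP-glucuronic acid) and Papss1 and Papss2 (activated sulfate), all in state 1 in all groups. The microsomal glutathione transferases Mgst1, Mgst2 and Mgst3 were active in all groups. Of 8 other conjugating enzymes 6 were active in all groups, and Nat1 and Ugt8a in none. All 13 regulators were active in all groups and 11, 10 and 9 were in state 1 or 2, among them Nfe2l2, Ahr, Nr1i3 and Ppara, in state 1 in all groups. From SD 3m, 2 of the 10 cofactor genes and 1 of the 13 regulators had changed state in SD 12m (background 32.7%), and 2 and 3 in CR 12m (background 35.5%). None of the genes in these lists moved between active and inactive. From SD 3m, 2.37% of all genes became active and 2.27% inactive in SD 12m, and 3.07% and 2.64% in CR 12m. As such moves are rare, their absence from short lists says little.

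All 5 hepatocyte markers (Alb, Apoa1, Ttr, Serpina1a and Fgb) had an active TSS bin in each group. Over all genes, 63.0%, 63.1% and 63.4% had an active TSS bin in SD 3m, SD 12m and CR 12m. With 5 or fewer markers per cell type, these counts are a weak guide. Of the 5 Kupffer cell markers listed, 1 was not among the 20021 genes. Of the markers of other cells, 2, 1 and 1 of 4 for Kupffer cells were active in SD 3m, SD 12m and CR 12m, 3, 3 and 5 of 5 for sinusoidal endothelial cells, 2, 1 and 1 of 5 for stellate cells, 2, 3 and 4 of 5 for cholangiocytes and 1, 1 and 0 of 5 for leukocytes. In bulk liver, fewer cells of a type and less of a mark per cell cannot be told apart. The groups also differed in the number of merged libraries, with 7, 8 and 5 for H3K4me3, 8, 7 and 9 for H3K27ac, 8, 6 and 9 for H3K4me1 and 7, 8 and 6 for H3K27me3 in SD 3m, SD 12m and CR 12m. The part of these differences in the states described was not tested, and the read depth of the merged data is unknown.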

How the data were processed

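ChIP-seq of 4 histone marks was performed by the study on liver chromatin of mice in 4 groups. The authors aligned reads of 50 bases to mm10 (BWA 0.6.2-r126 and SAMtools 0.1.18 per the labels), filtered out duplicates and reads of low mapping quality, pooled the libraries within groups and assigned states with ChromHMM. The deposited value is a state label from 1 to 8 for each bin of 200 bp. It is a category and not a signal, so it carries no depth, and the merging, the threshold for a mark and the smoothing along the genome are already in it. Groups were taken from the sample labels.

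In Python 3.11.15 with numpy 2.4.6 and pandas 2.3.3, the TSS of each gene was taken from its longest curated RefSeq transcript in GRCm38.p6, whose chromosome lengths fit the bins. States were read in the TSS bin, in the 21 bins within 2 kb and in the gene body, without a filter. A word of 50 bases was called unique if it occurs once in the genome on either strand. Promoters were aligned locally with Biopython 1.88. The functions were tested on simulated states. All genes of the 3 families are accounted for. Those named with values were the genes whose TSS bin changed class and a list of genes by role. Also named were the 5 with the largest rise and up to 5 with the largest fall of the active share within 2 kb per comparison. Genes, lists and alternatives were chosen with earlier results of these data known. Pseudogenes with such symbols were left out.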

Additional observations from a re-analysis of the deposited data

Results flagged for a closer look

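The active share of the gene body moved by at least 5 points in opposite directions under the diets, relative to SD 3m, in 4 of the 64 genes (6.25%, background 2.14%). In Sult6b1 it was higher by 34.2 points in SD 12m and lower in CR 12m, with a difference of -7.21 points. In Sult6b2 the order was the reverse, with -15.8 points in SD 12m and 16.8 points in CR 12m. In Ugt2a1 the differences were -6.33 and 5.06 points and in Ugt2a2 they were -8.70 and 6.96 points, and the bodies of these genes overlap, so they share most of their bins. With 1 segmentation per group, the differences between the diets were not tested.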

How the results depend on the processing

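Each of 21 values was recomputed under the alternatives, which gave 102 values, of which 94 stayed within the Wilson 95% interval of the main share over the 64 genes and 8 left it. This interval is a wide yardstick and not a test, as genes of a cluster are not independent. It was also applied to means of bin percents, which are not shares of genes. For example, 87.3% within 2 kb in SD 3m without the Sult2a genes lay within the interval of 79.9%. With the states merged into 5 classes, 17.2% instead of 26.6% of TSS bins changed in SD 12m and 26.6% instead of 39.1% in CR 12m. A further alternative took any bin within 1 kb in place of the TSS bin. State 1 or 2 was then found in 43.8%, 43.8% and 42.2% of the genes in SD 3m, SD 12m and CR 12m. The fall from 28.1% to 17.2% in the TSS bin was not seen with this measure, which counts both sides of the TSS. Before the TSS alone, 25%, 7.81% and 9.38% of the genes had any such bin within 2 kb, in the same order of groups. After the TSS the shares were 45.3%, 43.8% and 42.2%. With all gene-body bins pooled, so that long genes weigh more, the active share was 55.3% in SD 3m and 61.4% in SD 12m, and in CR 12m it was 69.9%. Without the 8 Sult2a genes, an alternative chosen after seeing the data, state 7 covered 0.0812%, 0.456% and 0% of the gene bodies instead of 1.24%, 1.16% and 0.602%, so the lower value in SD 12m than in SD 3m rested on that cluster. The same alternative left the means within 2 kb at 87.3%, 88.3% and 87.5%, so the rise over the groups from 79.9% to 86.2% rested on that cluster. The other alternatives were the most upstream start, the most frequent state within 1 kb, 1 gene for each of 55 groups of overlapping gene bodies, the 43 genes with at least 90% unique words within 2 kb, windows of 1 kb and 5 kb, active stretches of at least 1 kb, and active states without state 5. No paired analysis was possible because the libraries of each group were merged before the states were assigned, and for the same reason no library could be left out. Whether a mark was detected in a bin depends on the depth of the merged reads, which is unknown.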
